A study of Mus musculus with 4 samples.

Results

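Oxidative phosphorylation (OXPHOS) genes of the nuclear genome were examined in hematopoietic stem and progenitor cells (HSPCs) of mouse bone marrow. The members were chosen by name alone, as the genes that begin with Ndufa, Ndufb, Ndufc, Ndufs, Ndufv, Uqcr, Atp5 or Cox4 to Cox8, without assembly factors of the Ndufaf type and without names holding -ps. By this rule, 81 of 32272 genes were members, namely 38 named for complex I, 8 for complex III, 18 for complex IV and 17 for complex V. Lin-cKit+ cells, from the marrow of 8-week-old male C57BL/6 mice, were profiled by single-nucleus multiome sequencing, which counts RNA as unique molecular identifiers (UMIs) and open chromatin as ATAC counts in the same nucleus. The unligated control (Ctrl) and the ligature-induced periodontitis (Lig) group, both at day 14, each comprised 1 sample pooled from 5 mice, with 1 RNA and 1 ATAC library. Barcodes of the deposited matrix carried suffix 1 or 2, and no label ties a suffix to a group, so the suffixes were treated as library 1 and library 2, in no group. No effect of ligature was therefore computed, and with 1 library each no test was possible. All intervals are 95% intervals of counting error alone.

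The respiratory chain of the inner mitochondrial membrane passes electrons from NADH and succinate to oxygen and pumps protons as it does so. Complex I takes electrons from NADH, complex III hands them to cytochrome c, complex IV passes them to oxygen, and complex V, the ATP synthase, uses the proton gradient to make ATP. Most subunits are encoded in the nucleus and the remainder by mitochondrial DNA. Blood stem cells are known for a strong use of glycolysis, and their differentiation for a growing use of respiration. Mitochondrially encoded subunits were not analysed here, and the nuclear part was followed as RNA in nuclei rather than in whole cells.

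After filtering, 5905 nuclei of library 1 and 7714 of library 2 remained, with a median of 1641 and 1516.5 UMIs. Transcripts assigned to the ribosomal locus (Gm42418, Gm26917 and AY036118) took 43.0% and 53.2% of all UMIs, so levels are given as CPM, which are counts scaled to the same total of UMIs outside these genes. Joint clustering of RNA and ATAC, with the members left out of the variable genes, gave 20 clusters. Of these, 14 were named from marker genes and formed 13 classes, and the 6 unnamed clusters held 43.3% of library 1 and 54.8% of library 2. There were 146 barcode sequences found under both suffixes, 72 of them among the kept nuclei.

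Promoter sequences were available for 65 of the 81 members in RefSeq (GRCm38.p6), as the 250 bases before and the 50 bases after a listed start. Of 8 motifs searched on both strands, 4 were those of nuclear respiratory factor 1 (NRF1, the palindrome of GCGCA followed by TGCGC), of ETS factors such as GABPA (CCGGAAG), of YY1 (AAGATGGCG) and of estrogen-related receptors (ERR, TCAAGGTCA). These factors are textbook regulators of respiratory genes. The others were a shorter NRF1 motif (TGCGCA), the SP box (GGGCGG), the box CCAAT and the TATA box (TATAAA). The NRF1 letters stood in 5 of 65 member promoters (7.7%), namely Atp5g2, Atp5k, Cox6a1, Ndufa11 and Uqcrc1, against 1.4% of 16571 promoters of protein-coding genes and 2.5% of the 6641 of these with 50 UMIs or more per library (expressed genes). The ETS letters stood in 14 (21.5%), against 12.3% and 21.6%, so their share in the members was close to that of the expressed genes. The ERR letters stood in the promoter of Atp5g3 alone (1.5%, against 0.3% and 0.2%). The shorter NRF1 motif stood in 23.1% of member promoters, against 10.3% and 16.4%, and the SP box in 40.0%, against 48.0% and 67.8%. The CCAAT box stood in 43.1%, against 38.7% and 39.1%, and the TATA box in 12.3%, against 12.9% and 6.2%. In 63 promoters of cytosolic ribosomal protein genes, the shares were 1.6% for NRF1, 19.0% for the shorter NRF1 motif, 39.7% for ETS and 0.0% for ERR. They were 60.3% for the SP box, 30.2% for the CCAAT box and 9.5% for the TATA box. The first listed start of each gene was counted, and 5 members had a second one. A match of letters is a description and not a bound site.

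The 4 promoters with the NRF1 letters before the start are shown because this motif is tied by textbook knowledge to respiratory genes and its position can be compared between them. Capitals mark NRF1 and ETS letters, and each sequence runs from 250 bases before to 20 bases after the start, 5′ to 3′ on the strand of the gene. Cox6a1, a complex IV subunit (chr5:115348939-115349208, minus strand), and Atp5k, subunit e of the ATP synthase (chr5:108434380-108434649, minus strand), hold both motifs. Atp5g2, a gene for the c subunit of the membrane ring (chr15:102671028-102671297, minus strand), and Ndufa11, a complex I subunit (chr17:56717512-56717781, plus strand), hold the NRF1 letters.
Cox6a1: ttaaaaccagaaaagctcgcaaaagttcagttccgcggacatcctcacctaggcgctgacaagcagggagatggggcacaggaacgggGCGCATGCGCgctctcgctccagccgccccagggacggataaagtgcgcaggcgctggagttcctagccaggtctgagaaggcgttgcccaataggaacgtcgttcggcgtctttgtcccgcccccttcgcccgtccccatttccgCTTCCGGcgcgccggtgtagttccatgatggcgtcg
Atp5k: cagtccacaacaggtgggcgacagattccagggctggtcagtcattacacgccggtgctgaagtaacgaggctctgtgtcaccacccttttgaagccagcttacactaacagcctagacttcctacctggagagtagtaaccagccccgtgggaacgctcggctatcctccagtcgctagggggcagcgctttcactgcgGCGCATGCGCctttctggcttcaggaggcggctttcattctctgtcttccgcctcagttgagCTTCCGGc
Atp5g2: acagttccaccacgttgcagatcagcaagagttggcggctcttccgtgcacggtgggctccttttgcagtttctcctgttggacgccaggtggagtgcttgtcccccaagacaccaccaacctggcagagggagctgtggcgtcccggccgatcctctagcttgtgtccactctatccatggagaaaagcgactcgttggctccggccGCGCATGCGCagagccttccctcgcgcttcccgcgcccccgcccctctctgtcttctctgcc
Ndufa11: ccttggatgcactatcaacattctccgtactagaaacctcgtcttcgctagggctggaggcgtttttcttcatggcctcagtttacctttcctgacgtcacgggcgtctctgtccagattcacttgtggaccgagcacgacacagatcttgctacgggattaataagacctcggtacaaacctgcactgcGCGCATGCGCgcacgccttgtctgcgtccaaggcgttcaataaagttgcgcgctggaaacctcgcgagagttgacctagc
The NRF1 letters began 162 bases before the start in Cox6a1, 50 in Atp5k, 42 in Atp5g2 and 60 in Ndufa11.

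The YY1 letters stood in the first listed promoter of 6 members (9.2%, against 2.0% of protein-coding and 4.1% of expressed genes). Among cytosolic ribosomal protein genes, 4 of 63 promoters (6.3%) held them. Of the 6 members, 5 were complex I genes and 1, Atp5j2, encodes subunit f of the ATP synthase. In all 6 the letters lay on the strand of the gene and began 22 to 35 bases after the start. The second listed promoter of Atp5j (chr16:84834927-84835226, minus strand), which was not counted, also holds the YY1 and ETS letters, both of them before the start. Over all protein-coding promoters with these letters, 211 of 336 (62.8%) held them after the start and 252 held them on the strand of the gene. The 30 bases from position 20 after the start are shown for the 6 genes, with the YY1 letters in capitals, to show how closely they line up.
Atp5j2: ttcAAGATGGCGtcactcggtgagtactcg
Ndufa9: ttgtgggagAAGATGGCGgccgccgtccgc
Ndufc1: acAAGATGGCGccgtccgtagtgctgcgct
Ndufs4: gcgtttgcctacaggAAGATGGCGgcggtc
Ndufs6: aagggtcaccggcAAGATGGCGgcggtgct
Ndufs7: ggccAAGATGGCGgcgctggcgggtgagtg
These stretches lie at chr5:145191492-145191521 (Atp5j2), chr6:126849095-126849124 (Ndufa9), chr3:51408906-51408935 (Ndufc1), chr13:114388045-114388074 (Ndufs4), chr13:73328433-73328462 (Ndufs6) and chr10:80249469-80249498 (Ndufs7), of which the last is on the plus strand and the others on the minus strand. The letters contain ATG, the usual start codon, and whether they serve as one here was not tested.

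The members together held 63089 UMIs, 0.516% of the UMIs outside the ribosomal locus in library 1 and 0.559% in library 2. A nucleus held a median of 5 member UMIs in library 1 and 4 in library 2, and 2.3% and 2.85% of the nuclei held none. Of the member UMIs, complex V genes contributed 35.1%, complex I genes 32.0%, complex IV genes 23.0% and complex III genes 9.9%. Levels are therefore given as sums over nuclei.

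**Figure D1:**
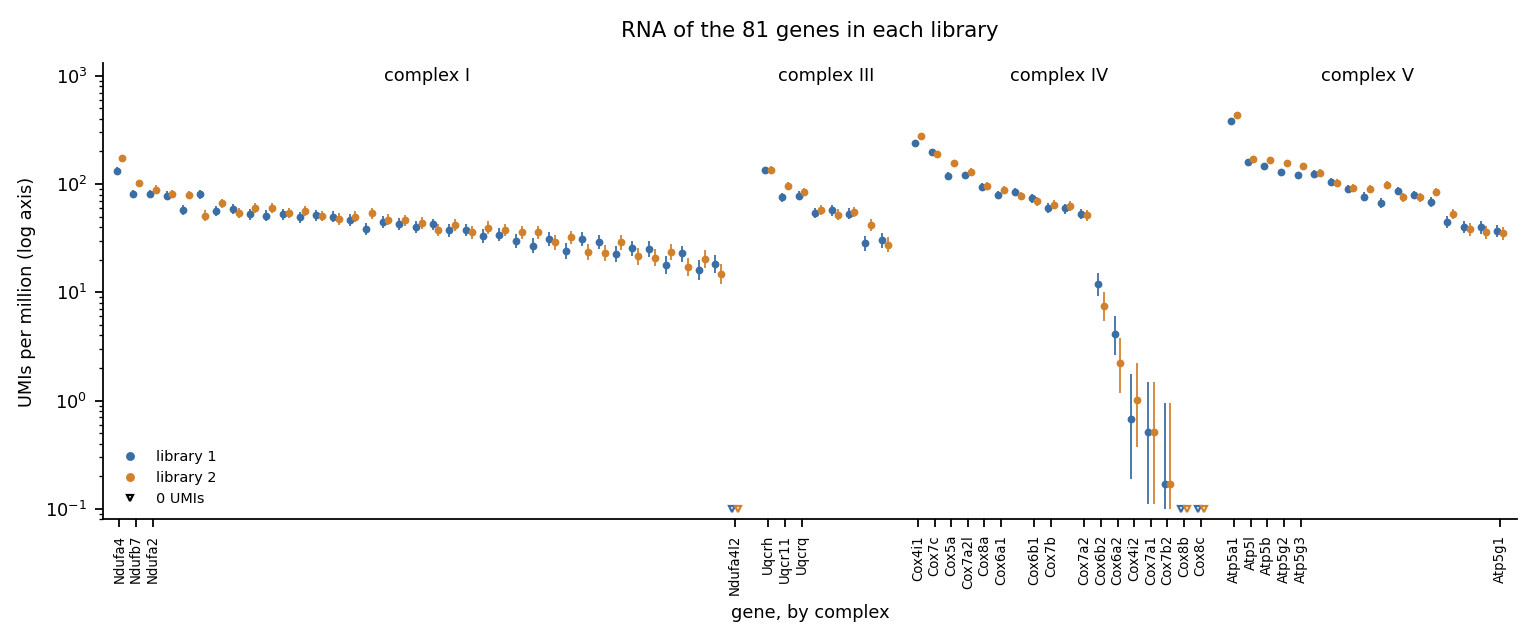
RNA of each of the 81 genes in CPM outside the ribosomal locus (log axis), sorted within each complex, with exact 95% Poisson intervals for library 1 and library 2; open triangles stand for 0 UMIs, and labels mark the 3 highest genes of each complex and the isoform families. Atp5a1 has the most UMIs, at 383.66 and 430.62 CPM, and the low tail consists of complex IV isoform genes and Ndufa4l2.

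Among the complex V genes, Atp5a1 (alpha subunit of the catalytic head) had the most UMIs of all members, with 2250 in library 1 and 2529 in library 2. Its level was 383.66 CPM (367.97 to 399.85) and 430.62 CPM (414.0 to 447.74). Atp5l (subunit g) had 158.58 and 171.29 CPM, and Atp5b (beta subunit, which holds the catalytic sites) had 145.79 and 166.70 CPM. The intervals of the libraries were separate for Atp5a1 and Atp5b and overlapped for Atp5l. Atp5g1 had the fewest UMIs of the 17 complex V genes, 217 and 206.

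Among the genes named for complex IV, Cox4i1 had 241.62 and 275.84 CPM, Cox7c 196.60 and 187.81 CPM and Cox5a 118.85 and 157.50 CPM. Cox4i1 and Cox5a encode nuclear subunits that surround the mitochondrially encoded core, and Cox7c a small membrane subunit. The top 3 genes held 47.6% of the complex IV UMIs. Among the complex III genes, Uqcrh (the hinge protein) had 134.20 and 135.71 CPM, Uqcr11 75.37 and 95.69 CPM and Uqcrq 78.27 and 84.29 CPM, and these held 56.8% of the UMIs of the 8 genes.

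Among the 38 genes named for complex I, the top 3 held 19.2% of the UMIs. Ndufa4 had 133.17 and 174.19 CPM, Ndufb7 80.99 and 101.48 CPM and Ndufa2 81.34 and 89.05 CPM. Ndufa4 was named for complex I but is known as a subunit of complex IV, so the name prefix places it in the wrong complex.

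Several subunits exist as isoforms from separate genes, with a widely used form and forms known from muscle, testis or lung. For 8 such families with 19 genes, RNA and promoter were compared. In 6 families a single gene held at least 86.1% of the UMIs in both libraries. Cox4i1 had 1417 and 1620 UMIs whereas Cox4i2, a form known from lung, had 4 and 6. Cox6a1 had 467 and 520 UMIs, and Cox6a2, the heart and muscle form, 24 and 13. Cox7b had 352 and 380 UMIs, and Cox7b2 1 in each library. Cox8a had 553 and 560 UMIs, and both Cox8b and Cox8c had 0 in 13619 nuclei, which allows up to 0.5 CPM in each library. Ndufa4 had 781 and 1023 UMIs, and Ndufa4l2, a form known from hypoxia, had 0.

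In the Cox7a family, Cox7a2l (a factor of supercomplex assembly) held 69.2% and 71.5% of the UMIs and Cox7a2 (the widely used form) 30.5% and 28.2%. Cox7a1, the muscle form, had 3 UMIs in each library. The 3 Atp5g genes encode the same mature c subunit of the membrane ring, and none of them dominated. Atp5g2 held 45.1% and 46.0% of the family UMIs, Atp5g3 42.0% and 43.6% and Atp5g1 12.9% and 10.4%.

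A promoter peak within 1 kb of a start was present for 76 of the 81 members. The 5 without a peak were Cox6a2, Cox7b2, Cox8b, Cox8c and Ndufa4l2, all of them low isoform genes. For comparison, 73.9% of 21689 protein-coding genes and 99.3% of the 8213 with at least 50 UMIs in each library had such a peak. Of the 6 members with fewer than 20 UMIs in all, Cox4i2 and Cox7a1 nevertheless had a peak. The peak of Cox7a1 held counts in 17.5% of nuclei, close to the 18.4% of Cox6b1 and the 20.3% of Cox6b2, although Cox7a1 had 6 UMIs in all and Cox6b1 841. It lay over the annotated start (chr7:30183692-30184591) and was shared with no other gene start within 1 kb. The Cox7a1 promoter is shown because it was open with 6 UMIs in all, and the Cox6b2 promoter because it differed between lineages together with its RNA, as described further on; neither holds the letters of the 4 factors.
Cox7a1: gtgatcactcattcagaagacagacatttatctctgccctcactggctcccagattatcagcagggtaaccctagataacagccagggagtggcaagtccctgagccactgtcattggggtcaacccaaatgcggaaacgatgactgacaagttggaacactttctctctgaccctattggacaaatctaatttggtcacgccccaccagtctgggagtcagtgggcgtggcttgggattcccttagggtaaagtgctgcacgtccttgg
Cox6b2: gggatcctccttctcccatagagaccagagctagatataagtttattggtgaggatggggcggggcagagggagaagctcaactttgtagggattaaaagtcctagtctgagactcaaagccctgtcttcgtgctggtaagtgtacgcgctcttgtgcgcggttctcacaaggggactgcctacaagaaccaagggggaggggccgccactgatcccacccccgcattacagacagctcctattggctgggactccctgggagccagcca
They lie at chr7:30183921-30184190 (plus strand) and chr7:4753075-4753344 (minus strand), from 250 bases before to 20 bases after the start.

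**Figure D2:**
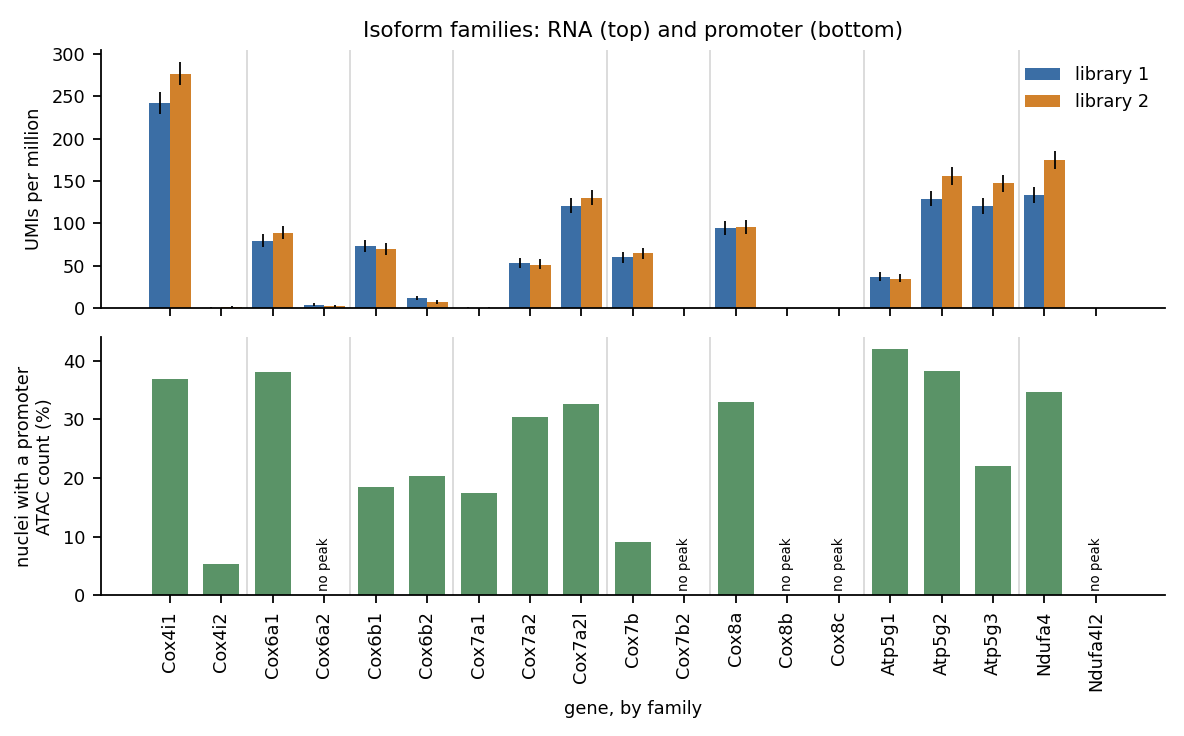
The 19 genes of 8 isoform families. Top, RNA in CPM in each library with exact 95% Poisson intervals. Bottom, percent of the 13619 nuclei with an ATAC count in a promoter peak. Cox7a1 is open in 17.5% of nuclei with 3 UMIs in each library.

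The question of how the OXPHOS genes differ between lineages was addressed with the summed member CPM of the 14 named clusters. Over all nuclei, it was 5162.0 CPM (5104.0 to 5220.5) in library 1 and 5587.7 CPM (5527.4 to 5648.5) in library 2. Lymphoid-primed multipotent progenitor-like (LMPP-like) nuclei were the lowest named cluster in both libraries, with 4777.3 CPM (4586.9 to 4973.6) and 5477.3 CPM (5250.4 to 5711.5). Their intervals overlapped those of basophil progenitor-like (BaP-like) nuclei, which were lowest in both libraries with all UMIs as the total. In library 2 the LMPP-like interval also overlapped those of other clusters, such as pro-B-like cluster 2, and held the level of all nuclei. The lowest place was therefore not resolved. In library 1, the highest were pro-B-like nuclei of cluster 11, which had Cacna2d1, Pcdh9 and Rag1 among its 10 leading genes, with 6732.9 CPM (6321.0 to 7164.6). In library 2, the highest were B cell-like nuclei, led by Iglc1, Gm30211, Jchain and Igha ahead of the B cell markers Ms4a1 and Bank1, with 7872.5 CPM (6974.1 to 8854.4). Jchain, Igha and Iglc1 encode antibody chains and their joining chain. The ratio of highest to lowest named cluster was 1.41 (1.31 to 1.52) in library 1 and 1.44 (1.27 to 1.63) in library 2. The clusters of such a ratio, here and below, were picked by their values, which its interval does not account for. Cytosolic ribosomal protein genes gave 1.43 and 1.35 over the same 14 clusters, with pro-B-like cluster 2 the lowest in both libraries. The unnamed clusters 0, 1, 4 and 6 had lower values than LMPP-like nuclei in both libraries. They ranged from 4435.0 to 4769.5 CPM in library 1 and from 4969.2 to 5206.4 CPM in library 2. In library 1, clusters 0 (4681.6 CPM), 4 (4769.5 CPM) and 6 (4768.9 CPM) lay within the LMPP-like interval, so they were not set apart from LMPP-like nuclei there.

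Pro-B-like cluster 11, B cell-like, neutrophil progenitor-like (NeuP-like) and NK/T progenitor-like (pro-NK/T-like) nuclei were the upper 4 of the 14 in library 1. In library 2 the same 4 clusters and pDCP-like nuclei (plasmacytoid dendritic progenitors) were the upper 5. The place of NeuP-like nuclei depended on the total, as their ratio to all nuclei was 1.27 and 1.23, but 1.03 (0.955 to 1.12) and 1.03 (0.973 to 1.09) with the ribosomal locus counted. NeuP-like nuclei had 6544.9 CPM (6046.4 to 7073.5) and 6886.0 CPM (6499.0 to 7290.0), and pro-NK/T-like nuclei 6323.9 and 6989.0 CPM. The intervals of the upper clusters overlapped within each library, so their order was not resolved. Hematopoietic stem cell-like (HSC-like) nuclei had 5338.6 and 5819.0 CPM, next to erythrocyte progenitor-like (EryP-like) with 5332.3 and 5769.1 CPM and megakaryocyte progenitor-like (MkP-like) with 5240.7 and 5817.1 CPM, and these intervals overlapped as well. Granulocyte-monocyte progenitor-like (GMP-like) nuclei had 5244.5 CPM (5003.0 to 5494.7) and 6317.3 CPM (6121.1 to 6518.2). BaP-like nuclei had 5053.7 and 5658.1 CPM and cDCP-like nuclei (conventional dendritic progenitors) 5251.0 and 5640.0 CPM. Monocyte progenitor-like (cMoP-like) nuclei had 5677.1 and 5934.7 CPM, and pDCP-like nuclei 5684.6 CPM (5032.6 to 6397.8) and 7071.3 CPM (5916.5 to 8385.7). The rank order of the 14 clusters in the libraries gave a Spearman correlation of 0.82, as a description of clusters that share their naming.

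**Figure D3:**
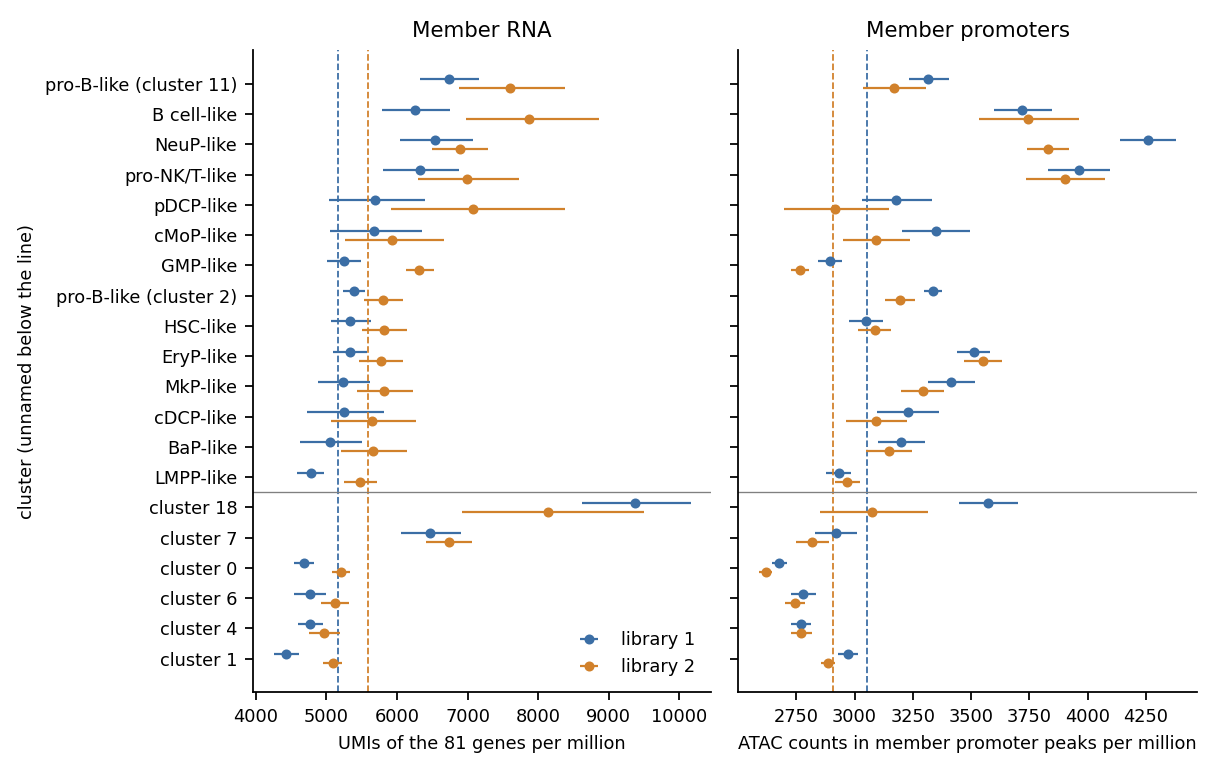
Summed member RNA (left, CPM outside the ribosomal locus) and summed ATAC counts in member promoter peaks (right, CPM of all peak counts) per cluster and library, with exact 95% Poisson intervals; axes do not start at 0, and dashed lines mark all nuclei. Named clusters range from 4777.3 to 6732.9 CPM of RNA in library 1. In both libraries the unnamed cluster 18 lies above them, and the unnamed clusters 0, 1, 4 and 6 lie below them.

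The 2 clusters named from pro-B markers differed from each other over all their nuclei. Cluster 2, led by Cplx2, Gfra2, Cecr2 and Ebf1, had 5392.5 CPM (5241.4 to 5546.9) and 5806.4 CPM (5533.2 to 6089.6), below cluster 11 in both libraries and without overlap of the intervals. The median UMIs per nucleus were 1834 and 1439 in cluster 2 and 843 and 775.5 in cluster 11. In nuclei of 1000 to 2000 UMIs cluster 11 was again above cluster 2 in its ratio to all nuclei, with intervals that overlapped, at 1.19 (1.06 to 1.32) against 1.08 (1.04 to 1.13) in library 1 and 1.34 (1.10 to 1.61) against 1.09 (1.03 to 1.16) in library 2. The ratio of the clusters to each other at this depth was not tested. Among the unnamed clusters, cluster 18, led by Sox6, Rhd and ribosomal protein genes, was the highest of all 20, with 9365.3 CPM (8619.8 to 10158.1) in 84 nuclei of library 1 and 8138.8 CPM (6926.5 to 9502.1) in 27 nuclei of library 2. Its summed cytosolic ribosomal protein genes had 135684.9 and 100157.7 CPM, against 56405.4 and 66000.4 CPM in all nuclei.

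Shallow nuclei had higher member CPM than deep ones. When nuclei of each library were split into tertiles by UMIs, the shallow tertile had 6429.6 CPM (6279.4 to 6582.4) and the deep tertile 4701.4 CPM (4622.7 to 4781.0) in library 1. In library 2, these were 6811.5 and 5077.8 CPM. Ribosomal protein genes were likewise higher in the shallow tertile, at 72553.3 against 49684.8 CPM in library 1 and 80658.5 against 58191.2 CPM in library 2. Within the named clusters, the shallow tertile lay above the deep tertile in 13 of 14 in library 1 and in 14 of 14 in library 2. In NeuP-like nuclei it was 1.77 and 1.43 times the deep tertile, and in HSC-like nuclei 1.17 and 1.31 times. Across the 14 clusters, member CPM and median UMIs per nucleus had Spearman correlations of -0.75 and -0.66, and member CPM and ribosomal protein CPM 0.56 and 0.68. Depth thus moved with the lineage order. With nuclei of 1000 to 2000 UMIs alone, B cell-like nuclei were highest in both libraries, and the ratio of highest to lowest was 1.29 (1.13 to 1.47) and 1.43 (1.13 to 1.82). In these nuclei, NeuP-like was 1.03 (0.891 to 1.19) and 1.28 (1.18 to 1.38) times the level of all nuclei, whereas in nuclei with at least 500 genes it was 1.04 (0.883 to 1.22) and 0.924 (0.803 to 1.06) times. With 1000 to 2000 UMIs, pro-NK/T-like was 1.18 (1.05 to 1.32) and 1.22 (1.04 to 1.42) times. Relative to ribosomal protein UMIs, member UMIs of the named clusters ranged from 8.33% in BaP-like to 10.18% in pro-B-like cluster 2 in library 1. In library 2 they ranged from 7.74% in pro-NK/T-like to 9.52% in pDCP-like nuclei. The unnamed cluster 18 was at 6.9% in library 1, below all named clusters, and at 8.13% in library 2.

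**Figure D4:**
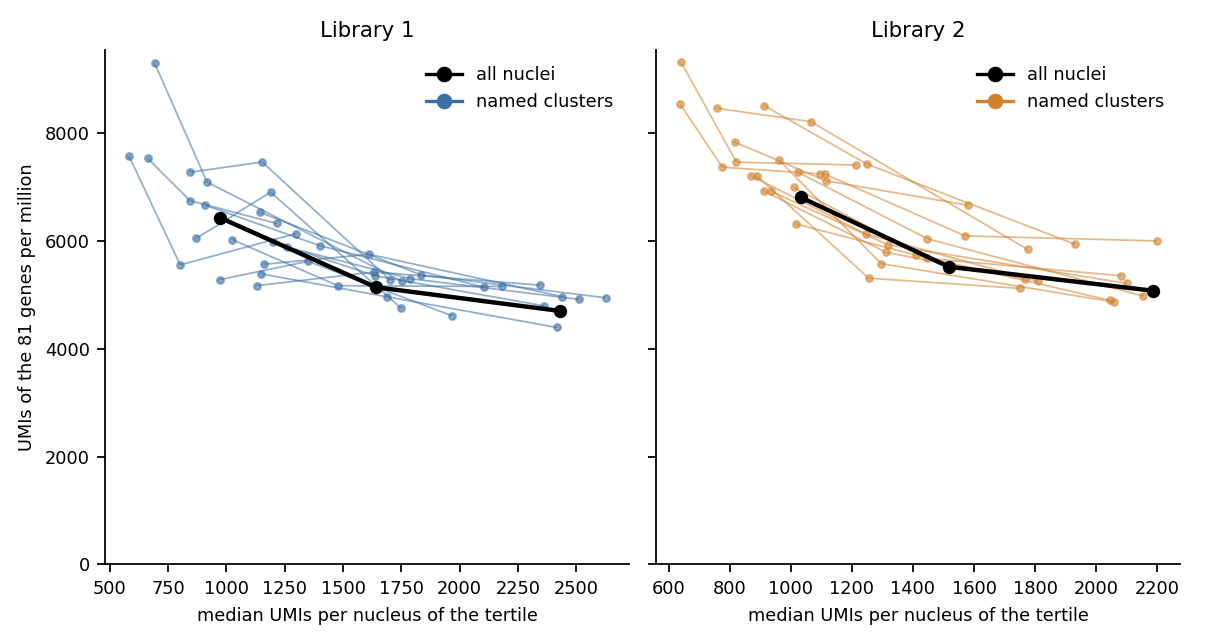
Member CPM against the median UMIs per nucleus for shallow, middle and deep tertiles of nuclei, for all nuclei (black) and each named cluster (coloured) in each library; lines join the tertiles of a cluster. In all nuclei of library 1 the level goes from 6429.6 CPM in the shallow to 4701.4 CPM in the deep tertile.

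Gene by gene, a member was counted as higher or lower in a cluster when its CPM was at least 1.5 times that of the other nuclei, or at most 1/1.5 times, in both libraries. Among the 73 members with at least 50 UMIs in each library, 39 (53.4%) were higher in at least 1 named cluster, against a background of 62.5% of the 8385 genes tested. Of the same members, 28 (38.4%) were lower in at least 1, against 76.5%. When at least 10 UMIs in the cluster were also asked for in each library, 12 members (16.4%) were higher, against 30.7%. These shares were below the background, but without a minimum of UMIs the share of members higher was 52.6% against 51.7% of all genes. The balance of the directions depended on the scaling, since with median-of-ratios scaling 18 members were higher (24.7%, background 43.3%) and 46 lower (63.0%, background 87.6%).

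In GMP-like nuclei, Atp5g1 was the sole member that was higher (1.37%, background 2.99%). It had 22 UMIs, or 65.2 CPM (40.9 to 98.7), in library 1 and 35 UMIs, or 56.4 CPM (39.3 to 78.4), in library 2, which was 1.85 and 1.73 times the other nuclei. Its promoter had 74.33 and 57.49 ATAC CPM there, against 71.58 and 62.53 in all nuclei, so it was not higher in both libraries. In HSC-like, EryP-like, LMPP-like and pro-B-like cluster 2 nuclei, 0 members were higher, against backgrounds of 8.96%, 8.81%, 7.05% and 9.62%. In MkP-like nuclei, Atp5d (delta subunit of the ATP synthase) was the sole member that was higher (1.37%, background 8.35%).

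Pro-B-like cluster 11 and B cell-like nuclei each had 11 members higher (15.1%), against backgrounds of 11.5% and 10.7%. In cluster 11, those with at least 10 UMIs in each library were Cox6a1, Uqcrq, Atp5mpl and Cox7a2l. They were 30.8% of the 13 members with such counts there, against 24.6% of all genes with such counts. Cox7a2l had 36 UMIs (243.6 CPM) and 14 UMIs (264.1 CPM), 2.07 and 2.05 times the other nuclei. In B cell-like nuclei, Cox5a alone of the 11 had at least 10 UMIs in each library. It had 23 and 11 UMIs (214.5 and 311.5 CPM), 1.83 and 1.99 times the other nuclei. Cox5a was 1 of the 4 members with such counts there, close to the 24.6% of all genes with such counts. The excess of members over the background in B cell-like nuclei therefore rests on genes with few UMIs. In NeuP-like nuclei, 6 members were higher (8.22%, background 7.61%), among them Atp5k with 133.6 and 157.3 CPM (2.03 and 1.65 times), Cox6b1 with 133.6 and 104.9 CPM and Atp5mpl, a small membrane protein of the ATP synthase, with 174.7 and 168.9 CPM. With all UMIs as the total, Atp5mpl alone was higher there (1.37%, background 5.01%), at 1.58 and 1.56 times, while Atp5k was at 1.65 and 1.37 times. Among genes with at least 10 UMIs there in each library, 13.6% of 22 members were higher, against 19.0% of all. In BaP-like nuclei, 3 members were higher (4.11%, background 6.23%) and 8 lower (11.0%, background 13.3%). Uqcrh had there 22 UMIs in each library (211.4 and 219.2 CPM), 1.59 and 1.63 times the other nuclei, and Atp5j2 134.5 and 129.5 CPM. In pro-NK/T-like nuclei 5 members were higher (6.85%, background 10.4%), in cDCP-like 3 (4.11%, background 8.98%) and in cMoP-like 3 (4.11%, background 9.49%). In pDCP-like nuclei 9 were higher (12.3%, background 8.32%) and 7 lower (9.59%, background 24.2%). Of the members higher in cMoP-like nuclei, and of those higher or lower in pDCP-like nuclei, 0 had 10 UMIs there in each library. Counting error therefore limits these calls. In cluster 18, 17 members were higher (23.3%, background 6.62%), of which 0 had 10 UMIs in each library. Cluster 7, unnamed, had 2 members higher (2.74%, background 2.99%), Ndufa5 at 108.0 and 69.1 CPM (3.87 and 2.01 times) and Uqcr11 at 129.7 and 146.4 CPM (1.75 and 1.57 times); its median ATAC depth was 6508 and 6548.5 counts per nucleus, against 19471 and 16284 in all nuclei.

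Atp5a1 and Cox4i1, the members with the most UMIs, were also the most even across named clusters. With the libraries pooled, the ratio of the highest to the lowest cluster was 1.68 for Atp5a1, 1.69 for Cox4i1, 1.75 for Atp5f1 (a stator subunit), 1.77 for Ndufb7 and 1.79 for Ndufa10. The median ratio over the 67 members with at least 100 UMIs in each library and no cluster at 0 was 2.97, and the ratio fell as UMIs rose (Spearman -0.70 across genes). At the other end, Ndufb6, Ndufa5 and Ndufs7 had 0 UMIs in the pDCP-like nuclei, which allows up to 44.7 CPM, and Ndufs3 had 0 in the cMoP-like nuclei, which allows up to 29.5 CPM. Ndufa7 had 4 UMIs in pDCP-like (59.7 CPM) and 1 in BaP-like nuclei (4.9 CPM), and Ndufab1, the mitochondrial acyl carrier protein, 17 in pro-B-like cluster 11 (84.7 CPM) and 1 in B cell-like nuclei (7.0 CPM). These large ratios rest on 0 or 1 UMI, so counting error limits them.

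Cox6b2, the testis form of a complex IV subunit, varied between lineages in both RNA and chromatin. It had 70 UMIs in library 1 and 44 in library 2 (11.94 and 7.49 CPM), below the 50 UMIs asked for in the second library. EryP-like nuclei held 12 and 8 of these, at 34.6 CPM (17.9 to 60.5) and 35.0 CPM (15.1 to 68.9), which was 3.29 and 5.48 times the other nuclei. In nuclei with at least 500 genes, the ratio in library 2 was 3.004 (0.364 to 10.85), an interval that holds 1. B cell-like, pro-NK/T-like, cDCP-like and cMoP-like nuclei held 0 in both libraries, which with the libraries pooled allows up to 21.0 CPM in B cell-like and 29.5 CPM in cMoP-like nuclei, the lowest and the highest of these limits, against 34.7 CPM in EryP-like nuclei (20 UMIs). Within 1 library the limits, set at 3 counts, were 28.0 to 85.0 CPM. The EryP-like intervals of both libraries began below these limits, so the clusters at 0 were not set apart from EryP-like nuclei. Its promoter was also highest in EryP-like nuclei, with 43.86 and 47.79 ATAC CPM against 27.16 and 24.89 in all nuclei, and the ratio of highest to lowest named cluster was 4.76 and 4.29. The lowest cluster was NeuP-like in library 1 (9.2 ATAC CPM) and pDCP-like in library 2 (11.1 ATAC CPM). The latter held 449322 peak counts in all, so counting error limits the ratio of library 2. The widely used form, Cox6b1, had 73.66 and 69.64 CPM in all nuclei, and its promoter was highest in BaP-like and B cell-like nuclei. Cox6b2 was singled out under the rule on isoforms, and its agreement between RNA and promoter was noticed after the values were seen.

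Cox6a2 UMIs were concentrated in pDCP-like nuclei in library 1 but could not be compared there in library 2. In library 1, 9 of its 24 UMIs lay in the 61 pDCP-like nuclei, at 186.0 CPM (85.1 to 353.2). In library 2, the 32 pDCP-like nuclei held 0 of 13 UMIs, which allows up to 160.7 CPM. The depth of library 2 could therefore not show whether the level was lower there, and no promoter peak was present within 1 kb of its start. LMPP-like nuclei had 4 and 3 UMIs (8.1 and 7.5 CPM).

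Promoter accessibility was summed over the 81 peaks within 1 kb of a member start. Over all nuclei it was 3053.8 CPM of all peak counts (3039.7 to 3067.9) in library 1 and 2908.1 (2895.0 to 2921.3) in library 2. GMP-like nuclei were the lowest named cluster in both libraries, with 2894.4 (2841.9 to 2947.5) and 2765.3 (2727.4 to 2803.5). Their interval overlapped that of LMPP-like nuclei in library 1 (2879.5 to 2985.9) and of pDCP-like nuclei in library 2 (2698.6 to 3149.9). The unnamed clusters 0 (2677.9 and 2619.8) and 6 (2781.0 and 2744.3) lay lower in both libraries. NeuP-like nuclei were highest in library 1, with 4256.6 (4137.6 to 4378.1), and pro-NK/T-like in library 2, with 3902.6 (3736.5 to 4074.2), where NeuP-like nuclei had 3828.7 (3740.0 to 3919.0). The ratio of highest to lowest was 1.47 (1.42 to 1.52) and 1.41 (1.35 to 1.48). These clusters were again picked by their values, which the intervals do not account for. The order depended on the nuclei and clusters used. With at least 500 genes, pro-NK/T-like nuclei were highest in library 1, while in library 2 EryP-like nuclei were highest and cMoP-like lowest. In library 1, a pDCP-like cluster was lowest at a clustering resolution of 0.4, where it held 1034 nuclei in place of 93, with ATAC-only clusters and without correction between libraries. Promoters of ribosomal protein genes gave 1.53 and 1.40, and those of all expressed protein-coding genes 1.34 and 1.28, with GMP-like nuclei the lowest named cluster in each. NeuP-like and B cell-like nuclei were also shallow in ATAC, with medians of 10581.5 and 9167 counts and of 7276 and 5763 counts per nucleus, and the part of depth in the result was not tested.

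Of the 73 members with at least 50 UMIs and 1000 ATAC counts in each library, 23 (31.5%) had a promoter that differed at least 2-fold between the highest and the lowest named cluster in both libraries, against 42.1% of 8020 promoters tested. Cox6b2 and Cox7a1, under 50 UMIs in at least 1 library, were not among the members tested. The median ratio was 1.94 and 2.12 for the members and 2.07 and 2.17 for all. A median of 27.1% of nuclei had a count in the promoter of a tested member, against 30.4% for expressed protein-coding genes, from 9.1% for Cox7b to 50.4% for Ndufa13. Of the 76 members with a peak, 30 had a peak that also lay within 1 kb of the start of another gene. Examples were Gabpa beside Atp5j, Emc8 beside Cox4i1, Lrrc41 beside Uqcrh and Rps28 beside Ndufa7. The openness of such peaks cannot be assigned to the member alone. Among the protein-coding genes used for comparison, 30.3% shared a peak. Gabpa encodes an ETS factor that is known to drive respiratory genes.

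Between the libraries, the summed member CPM in library 2 was 1.08 times that of library 1 (1.07 to 1.10), but with all UMIs as the total it was 0.89 times that of library 1 (0.876 to 0.904), since the ribosomal locus took more of library 2. Outside the locus, all 14 named clusters had the higher level in library 2, from 1.05 in NeuP-like and cMoP-like to 1.26 in B cell-like nuclei, and the interval lay above 1 in 9 of them. With all UMIs as the total, 2 of the 14 were higher in library 2. Since no suffix is tied to a sample, neither direction was attributed to ligature.

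By gene, 48 of the 73 members were higher and 25 lower in library 2, with a median log2 ratio of 0.11, whereas the median over the 8385 genes tested was -0.37. With all UMIs as the total, the split turned to 15 higher and 58 lower, with medians of -0.18 and -0.65, and with median-of-ratios scaling it was 70 and 3. Over all 8385 genes, 1610 were higher and 6775 lower outside the locus. The split of all genes was 559 and 7826 with all UMIs, and 4192 and 4192 with median-of-ratios scaling. A ratio of at least 1.5 was reached by 0 members (0%, background 1.49%), and a ratio of at most 1/1.5 by 1, Ndufs4 (1.37%, background 28.4%). Ndufs4, an accessory complex I subunit, had 470 UMIs (80.14 CPM) in library 1 and 299 UMIs (50.91 CPM) in library 2, a ratio of 0.64. The next smallest ratios among members that reached 100 UMIs in both libraries were those of Ndufb2 (0.75), Ndufa9 (0.76), Ndufa7 (0.79) and Ndufs3 (0.83), all named for complex I. Among the largest were Uqcrb, a complex III subunit, with 167 and 248 UMIs (ratio 1.48), Atp5k with 393 and 572 UMIs (1.45), Ndufb6 (1.39), Ndufs6 (1.38) and Ndufs7 (1.34). Median-of-ratios scaling multiplies all genes by the same factor, and with it Ndufs4 was at 0.82, no longer past the fold, while Ndufa7 (1.02) and Ndufs3 (1.07) lay above 1. A ratio of at least 1.5 was then reached by 22 members (30.1%, background 8.84%), with Uqcrb (1.92) and Atp5k (1.88) among them. With all UMIs as the total, 5 members (6.85%, background 56.2%) were past 1/1.5. Among them were Ndufs4 (0.52), Ndufb2 (0.62), Ndufa9 (0.63) and Ndufa7 (0.65). The genes past the fold thus depended on the scaling. All these gene ratios are over all nuclei, and the cluster shares differed between the libraries. Pro-B-like cluster 2 held 13.45% of library 1 and 5.04% of library 2, and the unnamed cluster 1 held 8.06% and 15.76%. The part of these shares in the gene ratios was not tested.

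The ratio between the libraries fell with the genomic span of a gene. The median log2 ratio was 0.06 for genes of up to 2 kb, 0.03 for 2 to 5 kb, -0.08 for 5 to 10 kb, -0.20 for 10 to 20 kb, -0.37 for 20 to 50 kb, -0.58 for 50 to 100 kb and -0.71 above 100 kb. Members were short, with a median span of 7.2 kb against 29.1 kb for all genes tested, and 72 of 81 spanned up to 20 kb. Their own medians were 0.12 for 2 to 5 kb, 0.11 for 5 to 10 kb, 0.09 for 10 to 20 kb and -0.13 for 20 to 50 kb, above those of all genes of like span. Ndufs4 spanned 100.5 kb (chr13:114287795-114388258) and was the sole tested member above 100 kb. Across genes, the Spearman correlation of span and ratio was -0.56 over all tested and -0.24 over the members. Span thus moved with the library ratio, and its part in the difference was not tested.

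**Figure D5:**
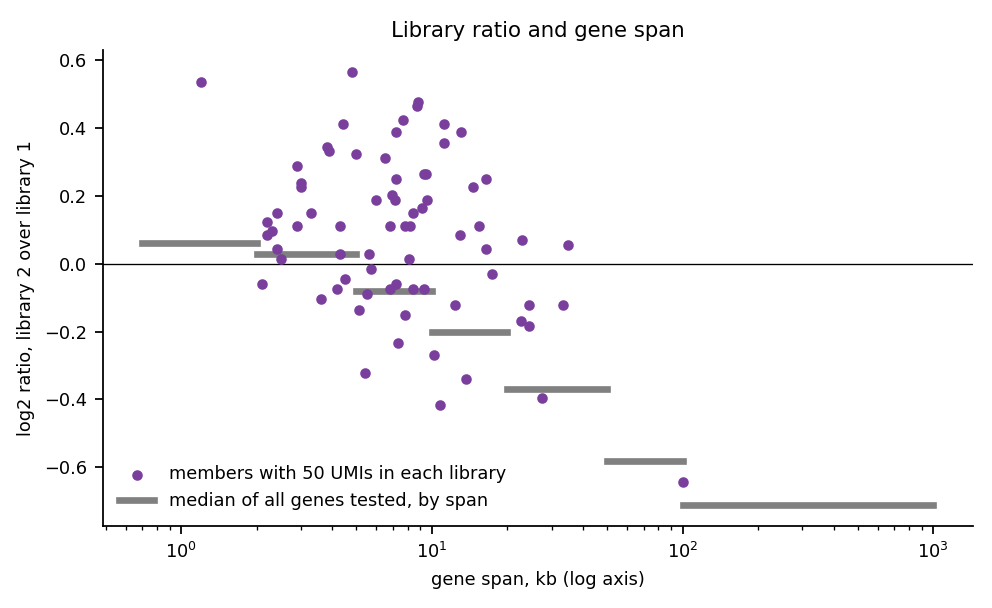
Log2 ratio of CPM in library 2 over library 1 against gene span (log axis) for the 73 members with at least 50 UMIs in each library (points), with the median of all genes tested in each span class (grey bars). Ndufs4, at 100.5 kb, is the lowest member and lies near the bar of the long genes.

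Other mitochondrial and metabolic lists were set beside the members. Of the 8385 genes tested, 1610 were higher and 6775 lower in library 2. These counts depended on the scaling, as did those of the lists. With all UMIs as the total, which was added after the values were seen, 23 of 80 ribosomal protein genes (median -0.11) and 5 of 15 glycolysis genes (median -0.17) were higher, and with median-of-ratios scaling all of both. The latter scaling also put 23 of 32 assembly factors, 15 of 17 TCA cycle enzymes and 10 of 17 regulators of mitochondrial biogenesis higher in library 2. The values that follow are for CPM outside the locus. Cytosolic ribosomal protein genes were higher in library 2 in 71 of 80 tested, with a median log2 ratio of 0.17. Regulators of mitochondrial biogenesis were lower in 15 of 17, with a median of -0.35, close to the -0.37 of all genes, and a summed ratio of 0.74. Among them, Nrf1 had 1110 and 613 UMIs (ratio 0.55), and Yy1 1453 and 1027 UMIs (ratio 0.71), and the list had a median span of 20.1 kb. Assembly factors were lower in 21 of 32 (median -0.16) and enzymes of the TCA cycle in 14 of 17 (median -0.17). Genes of complex II, cytochrome c and cytochrome c1 (Cyc1, a complex III subunit outside the naming rule), which were not members, split evenly, with 3 of 6 higher and a median of 0.06. Glycolysis genes were higher in 9 of 15 (median 0.11), among them Gpi1 with 1055 and 1143 UMIs (ratio 1.08).

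Glycolysis genes were highest in NeuP-like nuclei, with 2003.5 and 2178.8 CPM, and lowest in pDCP-like nuclei, with 785.5 and 1125.0 CPM, a ratio of 2.55 and 1.94, beside 1.41 and 1.44 for the members. The pDCP-like cluster held 61 and 32 nuclei, so counting error limits the glycolysis ratios. They were taken on UMIs outside the locus, the total on which the place of NeuP-like nuclei depended for the members. Regulators of mitochondrial biogenesis ranged over 1.44 and 1.89 times, and TCA cycle genes over 1.48 and 1.46 times. Cytosolic ribosomal protein genes ranged over 1.43 and 1.35 times. Within the members, complex I genes were lowest in LMPP-like nuclei of library 1 (1426.5 CPM) and HSC-like nuclei of library 2 (1682.6 CPM). Complex V genes were highest in NeuP-like nuclei of library 1 (2342.6 CPM) and B cell-like nuclei of library 2 (3001.7 CPM).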

How the data were processed

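The authors deposited a matrix of raw counts for 18961 barcodes, made with Cell Ranger ARC 2.0.0 (GRCm38, mm10). It held 32272 genes counted in UMIs and 174339 peaks with ATAC counts; the submitters' processing notes also name Seurat 4.0.3 and Signac 1.3.0. Barcodes with at least 200 genes and 1000 to 50000 peak counts were kept (10294527 and 12537328 UMIs). Nuclei were clustered by weighted nearest neighbours in Seurat 5.3.0 (rPCA anchors, resolution 0.8) and named from at least 3 markers. Scrublet (scanpy 1.11.5) called 4 doublets, too few to be trusted, so none were removed and the top 8% of scores were left out as an alternative. CPM leave out the ribosomal locus, and intervals are exact Poisson intervals at 95%, with a floor of 3 counts for a count of 0. ATAC intervals were computed on pairs of counts, as 82.7% of nonzero peak entries were even. Spans come from GENCODE vM21. Free RNA in droplets could not be measured with the members, as no cluster lacks them. Reads shared with processed pseudogenes may be split or lost, and for the handling of strand the sources used here give nothing. The fold calls were tested on simulated data. Named genes were the 3 with most UMIs per complex, the 5 largest and smallest ratios between lineages and between libraries among members with at least 100 UMIs in each library, all isoform genes and those under 20 UMIs; other genes were chosen after their values were seen. Members, lists and tests were chosen with earlier results of these data known.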

Additional observations from a re-analysis of the deposited data

How the results depend on the processing

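No paired analysis was possible because each group held 1 sample and no suffix is tied to a sample. The direction between libraries depended on the total: the member ratio of library 2 over library 1 was 0.89 with all UMIs as the total, 1.033 with nuclei of at least 500 genes and 1.401 with median-of-ratios scaling, which centres all genes. The filter of 500 genes kept 4169 of 5905 nuclei in library 1 but 1988 of 7714 in library 2. The count of members higher in a named cluster was 59 at a fold of 5/4 (80.8%, against 86.0% of all genes tested), 11 at a fold of 2 (15.1%, against 31.5%), 18 with median-of-ratios scaling (24.7%, against 43.3%) and 12 with at least 10 UMIs in the cluster (added after the data were seen). The count of members lower was 50 (68.5%, against 90.5%), 13 (17.8%, against 56.8%) and 46 (63.0%, against 87.6%) under the first 3 of these and 48 of 67 (71.6%, against 82.1%) with at least 500 genes. For the nuclei of 1000 to 2000 UMIs, also added later, the lineage ratio of RNA in library 1 was 1.287. The promoter ratio in library 1 was 1.294 with at least 500 genes, 1.546 with ATAC-only clusters and 1.532 without correction between libraries. Among ratios whose interval did not hold 1, those that turned to the other side of 1 were LMPP-like against all nuclei in library 1 with all UMIs (1.002), NeuP-like in library 2 with at least 500 genes (0.924), pDCP-like in library 2 at resolution 0.4 (0.923, for a cluster of 1034 nuclei in place of 93), Ndufb2 between libraries with at least 500 genes (1.008) and Ndufa7 with median-of-ratios scaling (1.022). Ratios whose interval held 1 also crossed it, such as Ndufs3 with median-of-ratios scaling (1.074), pDCP-like (0.945) and HSC-like (0.957) in library 1 at resolution 0.4, where HSC-like was also another set of nuclei (1952 in place of 607), BaP-like (0.952) and cMoP-like (0.991) in library 2 with all UMIs and EryP-like in library 2 with at least 500 genes (0.978). The causes were not tested. The other 43 values of the summary results stayed within their interval or within 1.5 times the count. For ratios of highest to lowest this concerns the size alone, whichever clusters were highest and lowest. Depth limits single genes: in the rarest clusters 0 UMIs allow up to 160.7 CPM.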
